A study of Mus musculus with 18 samples.

Results

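The 10 genes described here encode enzymes that write or erase methyl groups on lysine 4 of histone H3 (H3K4), together with a subunit that the writers share. They were selected by symbol as *Kmt2a*, *Kmt2b*, *Kmt2c*, *Kmt2d*, *Setd1a*, *Setd1b*, *Wdr5*, *Kdm5a*, *Kdm5b* and *Kdm5c*, and all 10 were found among the 34896 genes of the expression table. The study followed neutrophil formation in bone marrow of adult C57BL/6 mice of 6 to 12 weeks, from granulocyte-monocyte progenitors (GMPs) through preneutrophils (preNeu) to mature neutrophils (matNeu). RNA-seq came from wild type mice, with 3 libraries for each cell type. ChIP-seq against the histone mark H3K4me2 was available from wild type cells as 1 library per cell type, and ChIP-seq against CHD4, the ATPase of the nucleosome remodeling and deacetylase complex NuRD, as 1 library from wild type GMPs and 1 from GMPs of *Gfi1*-/- mice, which lack the transcriptional repressor GFI1. Whether the 3 RNA libraries of a cell type came from separate animals is not stated in the labels, so that p-values measure the spread between these libraries.

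Methylation of H3K4 marks active and poised regulatory DNA. The enzymes KMT2A, KMT2B, KMT2C, KMT2D, SETD1A and SETD1B each work in a large complex built on a core of WDR5, RBBP5, ASH2L and DPY30. SETD1A and SETD1B deposit most trimethylation at promoters, KMT2A and KMT2B act at developmental genes, and KMT2C and KMT2D place monomethylation at enhancers. The KDM5 proteins remove di- and trimethyl groups from the same lysine. KMT2A is known in blood as the protein whose gene is rearranged in acute leukemias and as a regulator of stem and progenitor cells.

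The cell types named in the titles were checked with marker genes, because a second label field of the samples gave another cell type for many libraries. The summed level of 6 GMP markers, among them the stem and progenitor antigen gene *Cd34* and the granule enzyme gene *Mpo*, was between 45300 and 47200 TPM (transcript abundance scaled to the same total in each library) in GMPs and between 9.32 and 32.7 TPM in matNeu cells. Granule genes of preNeu cells, such as *Ltf* and *Camp*, summed to between 145000 and 171000 TPM in preNeu cells, and 5 matNeu markers, among them *Cxcr2*, summed to between 23500 and 27200 TPM in matNeu cells. Transcripts of B cells were present at low levels in the later stages. *Cd79a*, which encodes a chain of the B cell receptor, was at most 0.603 TPM in GMPs and reached 16.2, 18.6 and 33.1 TPM in matNeu libraries 1, 2 and 3. *Ms4a1*, which encodes a B cell surface protein, was at most 0.523 TPM in GMPs and reached 8.33, 11.5 and 16.0 TPM in the same matNeu libraries. *Cd79b*, the partner of *Cd79a*, was between 77.9 and 93.7 TPM in GMPs, between 17.3 and 27.4 TPM in preNeu cells and between 25.1 and 53.9 TPM in matNeu cells. In matNeu library 3, which had the highest matNeu values of these 3 genes, 8 of the 10 genes had their highest matNeu value, and 46.8% of all tested genes did. The 3 eosinophil and basophil markers summed to 879 to 1140 TPM in GMPs, 75.5 to 121 TPM in preNeu cells and 0.481 to 2.46 TPM in matNeu cells. Of these, *Mcpt8* was 86.6 to 117 TPM in GMPs and still 55.3 to 102 TPM in preNeu cells, while *Prg2* and *Epx* fell. The 4 monocyte and dendritic markers summed to 1640 to 1960 TPM in GMPs and 32.0 to 60.8 TPM in preNeu cells. In matNeu cells they summed to 265 to 378 TPM, of which *Csf1r* made up 253 to 350 TPM. The part of B cells and of these lineages in the values below was not tested. In sorted cells a lower TPM can stem from fewer cells of a type or from less RNA of a gene per cell, and the data cannot tell these apart.

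Positions are given in the mouse genome GRCm38 with GENCODE gene models. *Kmt2a* (ENSMUSG00000002028) is on the minus strand of chr9:44803355-44881296, *Kmt2b* (ENSMUSG00000006307) on the minus strand of chr7:30568858-30588726, *Kmt2c* (ENSMUSG00000038056) on the minus strand of chr5:25271798-25498783 and *Kmt2d* (ENSMUSG00000048154) on the minus strand of chr15:98831669-98871204. *Setd1a* (ENSMUSG00000042308) is on the plus strand of chr7:127776670-127800122, *Setd1b* (ENSMUSG00000038384) on the plus strand of chr5:123142193-123168629 and *Wdr5* (ENSMUSG00000026917) on the plus strand of chr2:27515157-27536535. The demethylase genes are also on the plus strand, *Kdm5a* (ENSMUSG00000030180) at chr6:120364124-120444574, *Kdm5b* (ENSMUSG00000042207) at chr1:134560171-134635285 and *Kdm5c* (ENSMUSG00000025332) at chrX:152233020-152274535.

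Promoter sequences from RefSeq (GRCm38.p6, 250 bases before to 50 bases after the start) were found for 7 of the 10 genes and were searched for CpG dinucleotides, the sites that the CXXC domains of KMT2A, KMT2B and the SETD1 partner CXXC1 recognise when they are unmethylated. The promoter of *Kmt2c* held 56 CpGs, more than 99.8% of the 32851 promoters of the same length, and those of *Kmt2a* and *Setd1a* held 36 and 35. The *Setd1a* sequence (chr7:127777139-127777438) lay past the gene start used for the peaks below (127776670). *Kmt2d* had 27, *Wdr5* 22, *Kdm5b* 17 and *Kdm5c* 13, beside a median of 7 over all promoters and of 20 over the promoters of expressed genes. The sequences below span that range, from the promoter with the most CpGs to the one with the fewest, with *Kdm5b*, the gene with the greatest rise in RNA, between them. CpGs are in capitals.
*Kmt2c* promoter, chr5:25498734-25499033, minus strand: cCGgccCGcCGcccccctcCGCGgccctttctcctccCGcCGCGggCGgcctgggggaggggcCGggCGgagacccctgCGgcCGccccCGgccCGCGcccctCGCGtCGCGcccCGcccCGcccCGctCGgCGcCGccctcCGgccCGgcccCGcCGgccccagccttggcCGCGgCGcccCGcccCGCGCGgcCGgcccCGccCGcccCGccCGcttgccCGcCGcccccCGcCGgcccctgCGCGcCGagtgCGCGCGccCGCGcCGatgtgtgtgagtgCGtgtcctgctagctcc
*Kdm5b* promoter, chr1:134559928-134560227, plus strand: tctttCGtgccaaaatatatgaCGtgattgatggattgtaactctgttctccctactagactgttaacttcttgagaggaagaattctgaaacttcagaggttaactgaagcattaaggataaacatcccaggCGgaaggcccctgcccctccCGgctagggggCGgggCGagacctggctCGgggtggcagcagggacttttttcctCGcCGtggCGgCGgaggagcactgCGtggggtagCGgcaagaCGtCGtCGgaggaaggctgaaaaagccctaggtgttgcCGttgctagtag
*Kdm5c* promoter, chrX:152232977-152233276, plus strand: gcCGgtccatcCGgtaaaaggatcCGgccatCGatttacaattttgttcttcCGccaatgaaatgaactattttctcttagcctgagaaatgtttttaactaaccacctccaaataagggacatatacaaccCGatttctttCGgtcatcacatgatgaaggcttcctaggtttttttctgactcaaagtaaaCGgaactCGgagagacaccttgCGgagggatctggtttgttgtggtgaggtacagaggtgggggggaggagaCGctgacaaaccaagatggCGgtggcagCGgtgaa

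In wild type GMPs, 6 CHD4 peaks lay in or within 10 kb of these genes, 4 at *Kdm5a*, 1 at *Kdm5b* and 1 at *Kmt2b*. The other 7 genes, *Kmt2a*, *Kmt2c*, *Kmt2d*, *Setd1a*, *Setd1b*, *Wdr5* and *Kdm5c*, had none. Thus 3 of 10 genes had a CHD4 peak, and 43.3% of the 11865 expressed coding genes did. Over the 832684 bp of the 10 windows this was 0.721 peaks per 100 kb, against 2.74 over the windows of all expressed coding genes. Each CHD4 list came from 1 library without a replicate, and these counts therefore carry no test.

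Of the 6 peaks, 1 lay inside a gene of the group. The peak in *Kdm5b* was centred in an intron 2567 bp past the start, at chr1:134562571-134562908, with a fold enrichment of 5.27 over background, which exceeded 18.5% of the peaks in the list. The peak upstream of *Kmt2b* (chr7:30592400-30592582, fold enrichment 5.84) lay in an intron of *Zbtb32*, 460 bp from an annotated *Zbtb32* transcript start. The strongest of the 6, upstream of *Kdm5a* (chr6:120357315-120357599), had a fold enrichment of 11 and its summit 5 bp from a transcript start of *Ccdc77*, in an exon of that gene. The other peaks near *Kdm5a* lay between 7200 and 8875 bp past the end of the gene, with fold enrichments of 5.89, 5.81 and 7.16, and the nearest transcript start was that of *Il17ra*, the gene of an interleukin-17 receptor subunit, 9798 to 11473 bp away.

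Windows of 200 bases around the CHD4 summits were searched on both strands for AAATCA (the core bound by GFI1), GAGGAA (the box bound by the myeloid factor SPI1), TGTGGT (RUNX factors), TGANTCA (AP-1) and TTGCNNAA (C/EBP factors). Matches of different motifs can share letters at their ends. The 3 windows below are those nearest to the start of each gene with a peak, on the strand of that gene, with every match in capitals. The *Kdm5b* window had 1 GAGGAA and 1 TGTGGT match, the *Kdm5a* window 1 AAATCA match and the *Kmt2b* window 1 GAGGAA match.
*Kdm5b*, 2567 bp into the gene, chr1:134562638-134562837, plus strand: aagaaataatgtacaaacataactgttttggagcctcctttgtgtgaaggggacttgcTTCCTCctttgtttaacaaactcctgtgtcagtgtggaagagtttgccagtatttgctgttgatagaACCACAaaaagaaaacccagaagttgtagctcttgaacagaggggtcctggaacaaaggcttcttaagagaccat
*Kdm5a*, 6690 bp upstream, chr6:120357334-120357533, plus strand: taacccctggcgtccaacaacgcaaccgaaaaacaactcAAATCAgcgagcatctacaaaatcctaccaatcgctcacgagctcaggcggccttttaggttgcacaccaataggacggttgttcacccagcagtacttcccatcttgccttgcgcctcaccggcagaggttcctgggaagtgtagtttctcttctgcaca
*Kmt2b*, 3756 bp upstream, chr7:30592382-30592581, minus strand: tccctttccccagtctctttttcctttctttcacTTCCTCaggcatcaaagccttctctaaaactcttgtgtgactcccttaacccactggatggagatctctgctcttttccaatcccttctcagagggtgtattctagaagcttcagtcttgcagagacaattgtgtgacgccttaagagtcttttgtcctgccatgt
Among the 35728 CHD4 windows of the whole list, 46.1% held GAGGAA, 23.9% TGTGGT, 12.0% AAATCA, 10.1% TGANTCA and 17.3% TTGCNNAA. Of the 3 windows past the end of *Kdm5a*, 1 had no match, and each of the others had 1 GAGGAA and 2 TGTGGT matches.

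None of the 6 CHD4 peaks overlapped a peak of *Gfi1*-/- GMPs. In the whole list 18.5% of the CHD4 peaks of wild type GMPs did, and among the 18249 peaks with a fold enrichment between 5.27 and 11, the range of the 6 peaks, 3.27% did. No CHD4 peak of *Gfi1*-/- GMPs lay within 10 kb of any of the 10 genes. That list was much shorter, with 7316 peaks over 2.2 Mb against 35790 over 15.1 Mb in wild type GMPs. The share of expressed coding genes near a peak of *Gfi1*-/- GMPs was not counted. With 1 library per genotype, a missing peak cannot be told from a weaker library. When the flanks were extended to 25 kb, 1 more peak of wild type GMPs was reached, with a fold enrichment of 12.1 inside *Il17ra* and 22142 bp past the end of *Kdm5a*, and it overlapped 2 peaks of *Gfi1*-/- GMPs.

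Marks at the promoters were read from the H3K4me2 lists, a promoter being the 2 kb before the gene start and the 500 bp after it. All 10 genes had an H3K4me2 peak at the promoter in GMPs, in preNeu cells and in matNeu cells. Of the expressed coding genes, 86.7% had a peak there in GMPs, 89.4% in preNeu cells and 88.1% in matNeu cells, so that the presence of a peak is common to most expressed genes. With peaks of a −log10 q-value of at least 5 alone, 5 of the 10 genes kept a promoter peak in GMPs (36.6% of the expressed coding genes had one), and all 10 did in preNeu cells (86.6%) and matNeu cells (84.8%). The 5 without one in GMPs were *Kmt2c*, *Setd1a*, *Wdr5*, *Kdm5a* and *Kdm5c*. The start itself lay inside a peak for 9 of the 10 genes in GMPs, where 74.2% of the expressed coding genes had their start inside a peak, and for all 10 in preNeu and matNeu cells, where 86.5% and 84.8% did. The lists differed in extent, with 49.8 Mb covered in GMPs, 97.9 Mb in preNeu cells and 80.4 Mb in matNeu cells. Fold enrichments and widths were therefore ranked within each list, and depth is unknown.

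The exception was *Kmt2a*. In GMPs its start lay in a gap of 693 bp between a peak of 2086 bp in the gene and a peak of 2025 bp upstream of it. In preNeu cells the start was covered by a single peak of 5630 bp and in matNeu cells by a single peak of 4927 bp. *Kdm5c*, the X-linked demethylase gene, had a similar arrangement in GMPs, where a peak of 816 bp at the start and a peak of 850 bp in the gene were separated by 694 bp, and single peaks of 3512 and 3198 bp covered the region in preNeu and matNeu cells. Its promoter peak had the lowest fold enrichment of the group at every stage, higher than 3.4%, 14.2% and 11.6% of the promoters with a peak in GMPs, preNeu and matNeu cells.

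The widest mark was at *Setd1b*. Its promoter peak measured 11227 bp in GMPs, 22400 bp in preNeu cells and 12011 bp in matNeu cells, wider than 99.7%, 99.6% and 96.8% of promoter peaks at the same stage. These peaks began at -7389, -17155 and -7122 bp relative to the start and covered noncoding genes there as well as the first part of *Setd1b*. The peak of preNeu cells also spanned the start of the neighbouring coding gene *Rhof*, which lay in a separate peak in GMPs and in matNeu cells. The promoter peak of *Kmt2d* measured 6026, 7349 and 6522 bp, and its fold enrichment exceeded that of 98.3%, 99.5% and 93.3% of promoters. The promoter peak of *Kmt2c* measured 5155, 6905 and 6368 bp, wider than 94.0%, 86.8% and 88.2% of promoter peaks at the same stage. *Kmt2c* had this peak alone in GMPs and 5 peaks within 10 kb of the gene at each later stage. Among them were intronic peaks of 1280 bp in preNeu cells and 1223 bp in matNeu cells, centred 22843 and 22666 bp past the start. These were weak, with fold enrichments of 2.98 and 2.75, above 21.4% and 23.0% of the peaks in their lists.

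*Kdm5b* differed from the other genes in how the fold enrichment of its promoter mark ranked. It exceeded that of 96.3% of promoters in GMPs, 65.0% in preNeu cells and 29.6% in matNeu cells. The peak measured 3133, 4140 and 4598 bp, wider than 74.9%, 64.1% and 79.3% of promoter peaks at the same stage. A second H3K4me2 peak, centred 3443 bp upstream of the start in GMPs, ranked near the top of its list at every stage, with a fold enrichment higher than 98.5%, 99.8% and 99.4% of all peaks. The ATAC-seq list, which marks open chromatin, held a peak of 716 bp inside it and a peak of 1211 bp over the start. The CHD4 peak in the *Kdm5b* intron lay inside the promoter H3K4me2 peak of GMPs and outside both ATAC-seq peaks. The ATAC-seq lists deposited for preNeu and matNeu cells were identical and are read here as 1 list of unknown stage. In that list the start of 8 of the 10 genes lay inside a peak, against 53.7% of the expressed coding genes, whereas the nearest peaks of *Kmt2d* and *Setd1b* were centred 693 and 922 bp upstream.

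**Figure D1:**
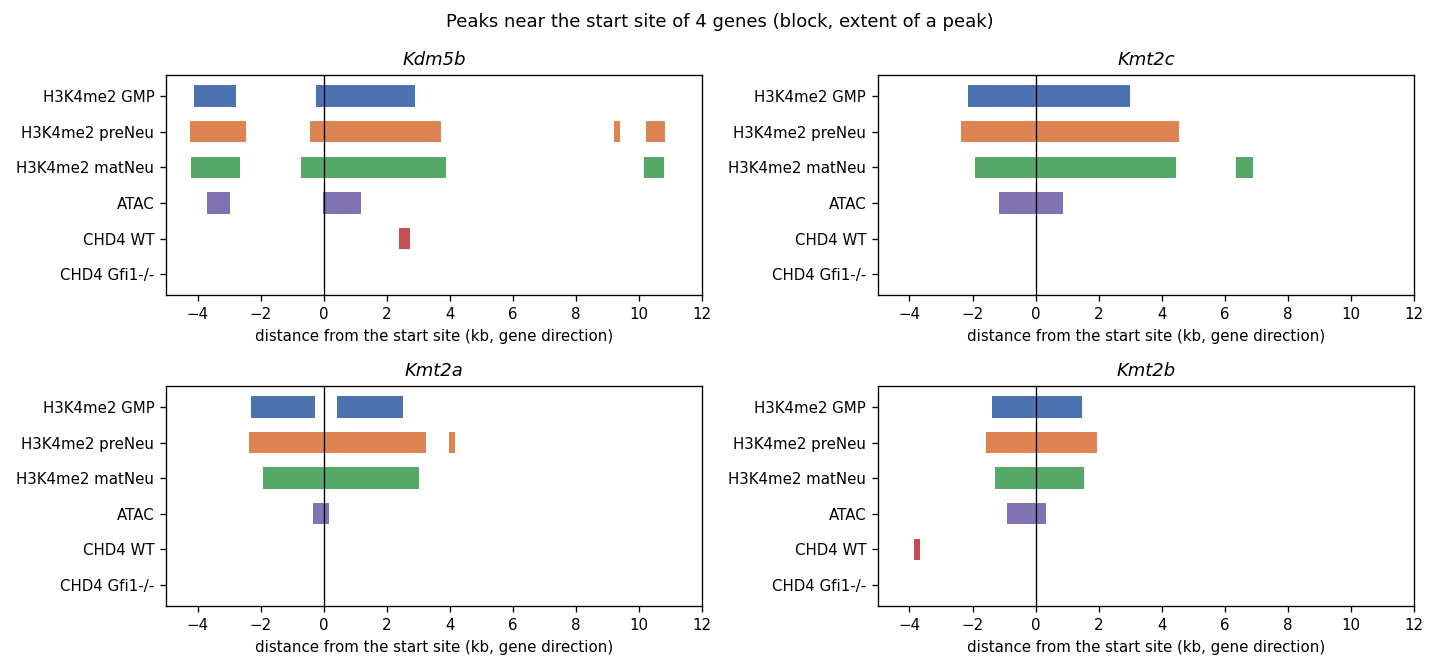
Peaks around the start sites of *Kdm5b*, *Kmt2c*, *Kmt2a* and *Kmt2b*, with the distance from the start in kb along the gene on the x axis and the peak lists on the y axis. Blocks are peaks, drawn to scale; the gap of 693 bp at the *Kmt2a* start in GMPs, the upstream H3K4me2 and ATAC-seq peaks of *Kdm5b* and the empty row of *Gfi1*-/- GMPs can be seen.

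**Figure D2:**
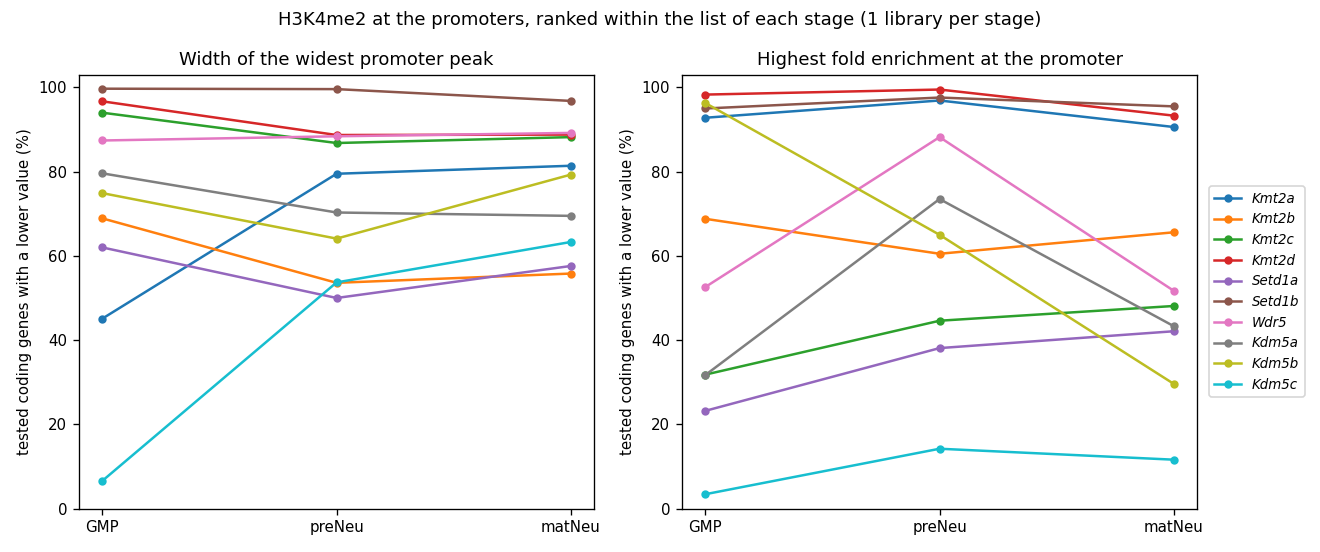
Rank of the H3K4me2 promoter peak of each gene among all expressed coding genes with a promoter peak, by width (left) and fold enrichment (right), in 1 library per stage. The y axis gives the percentage of genes with a lower value, which fell from 96.3% to 29.6% in fold enrichment for *Kdm5b* and was 6.58% in GMPs and 63.3% in matNeu cells in width for *Kdm5c*.

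RNA levels, which TPM scales for transcript length, were compared among the 10 genes. *Wdr5* was the highest at every stage, with 133 ± 8.52 TPM in GMPs (SD, n = 3), 123 ± 13.4 in preNeu cells and 74.7 ± 3.52 in matNeu cells. In GMPs it was followed by *Kdm5c* (36.4 ± 2.61 TPM) and *Kdm5a* (36.0 ± 4.44 TPM), whose ranges overlapped, and *Setd1b* was the lowest at 5.59 ± 0.62 TPM, overlapping *Setd1a*. In preNeu cells *Kdm5a* and *Kmt2c* came next, with overlapping ranges. In matNeu cells *Kdm5b* was second at 52.3 ± 9.22 TPM and overlapped *Kmt2c* (40.2 ± 11.4 TPM), and *Setd1a* was the lowest at 1.22 ± 0.891 TPM, below the range of every other gene of the group.

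**Figure D3:**
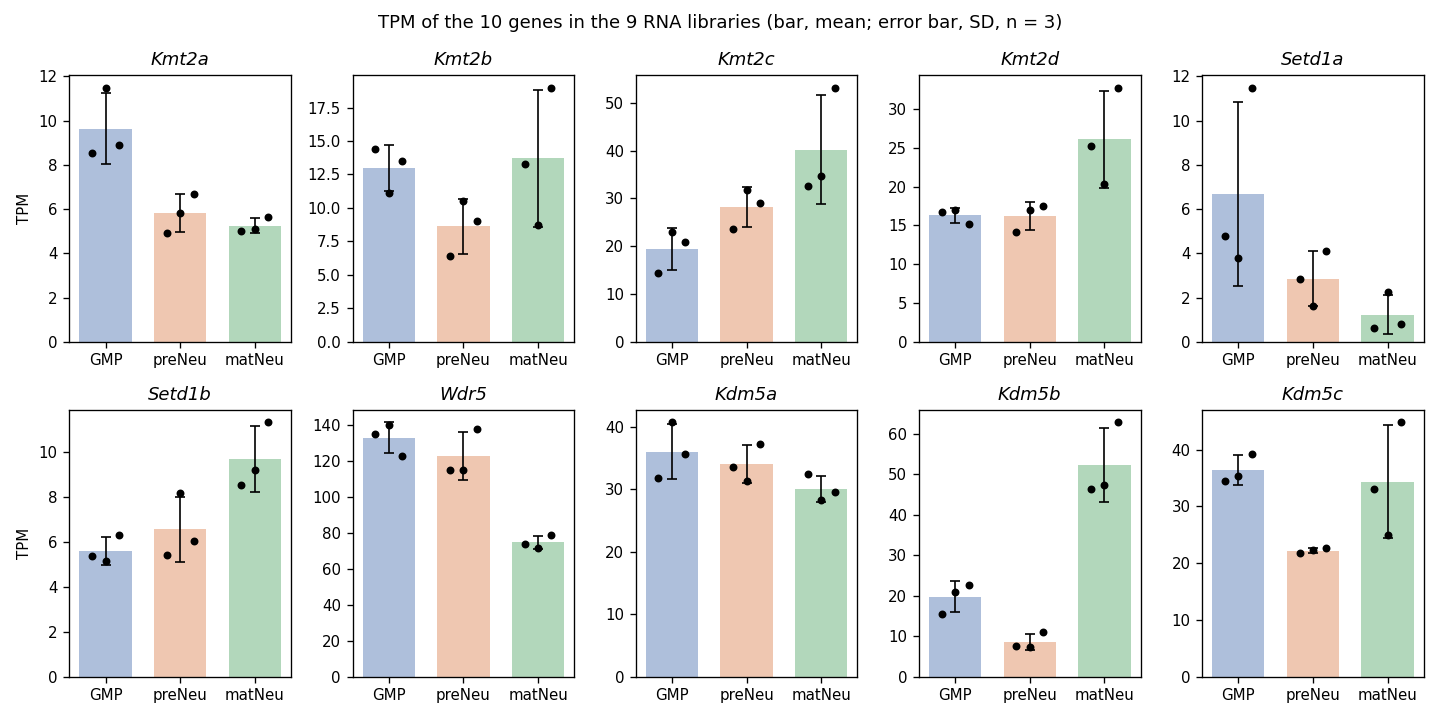
TPM of each gene in the 9 RNA libraries, with 1 panel per gene, the 3 cell types on the x axis and TPM on a y axis that starts at 0. Points are libraries, bars are means and error bars are SD (n = 3). *Kdm5b* has its lowest values in preNeu cells (7.28 to 10.9 TPM) and its highest in matNeu cells (46.4 to 62.9 TPM).

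Changes were tested with limma on log2(TPM + 1) over 13061 genes, and p-values were adjusted over all of them (Benjamini-Hochberg). The median difference of all tested genes was not 0. It was -0.52 on the log2 scale for preNeu cells against GMPs, -0.32 for matNeu against preNeu cells and -0.92 for matNeu cells against GMPs. A gene with a difference of 0 thus stood above the median gene. TPM values of a library sum to a fixed total, and the part of this in the median was not tested. Directions of the 10 genes that turn under another scaling are named with each gene. In preNeu cells 3 of the 10 genes were lower than in GMPs and 0 were higher, while 44.3% of all tested genes were called lower and 14.7% higher. At an unadjusted p under 0.05 there were also 0 higher. From preNeu to matNeu cells 3 were higher and 1 lower (all genes, 22.9% and 39.8%). In matNeu cells against GMPs 4 were higher and 3 lower (all genes, 22.8% and 54.1%). Of all calls, 25%, 36.5% and 29.6% were higher in the 3 comparisons, and 54.7%, 63% and 59.7% when every library was shifted to the same median. With TPM rescaled without the 100 highest genes these shares were 40.9%, 31.5% and 33.4%. Among the 10 genes the calls became 5 higher and 0 lower, 8 higher and 0 lower, and 9 higher and 0 lower under the shift to the same median, and 2 higher and 1 lower, 1 higher and 1 lower, and 4 higher and 3 lower without the 100 highest genes. Of all 13061 tested genes, 3828, 5530 and 6023 were called higher and 3166, 3251 and 4063 lower under that shift. Without the 100 highest genes, 2819, 2663 and 3327 were called higher and 4066, 5790 and 6623 lower. The median difference of the 10 genes between matNeu cells and GMPs was -0.05.

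Of the 3 KDM5 genes, *Kdm5b* had the widest range of stage means. It measured 15.4, 20.9 and 22.7 TPM in GMP libraries 1 to 3, 7.64, 7.28 and 10.9 TPM in the preNeu libraries and 46.4, 47.5 and 62.9 TPM in the matNeu libraries. No 2 stages overlapped, with preNeu cells lowest and matNeu cells highest. The log2 difference was -1.11 ± 0.22 (SE) for preNeu cells against GMPs (adjusted p = 0.00158, limma), 2.48 ± 0.22 for matNeu against preNeu cells (adjusted p = 3.23e-06, limma) and 1.37 ± 0.22 for matNeu cells against GMPs (adjusted p = 0.000198, limma), a 2.59-fold higher value on the log2(TPM + 1) scale. The higher level in matNeu cells was called under both alternative scalings and without any single library, at 1.23 against GMPs without matNeu library 3. The lower level in preNeu cells kept its direction when every library was shifted to the same median, at -0.48, but was no longer called (adjusted p = 0.0702, limma). The difference between matNeu cells and GMPs was larger than that of 85.4% of the tested genes.

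*Kdm5c* measured 34.5, 35.3 and 39.3 TPM in GMPs, 21.8, 22.3 and 22.6 TPM in preNeu cells and 33.0, 25 and 44.8 TPM in matNeu cells. The preNeu values lay below all others, and the matNeu range enclosed that of GMPs. It fell by 0.68 ± 0.20 (SE) on the log2 scale in preNeu cells against GMPs (adjusted p = 0.014, limma), a call lost under both alternative scalings, and rose by 0.56 ± 0.20 from preNeu to matNeu cells (adjusted p = 0.0315, limma). The rise was called without any single GMP library and was lost without any of 5 preNeu or matNeu libraries, where the difference ranged from 0.36 to 0.57. It was also lost with TPM rescaled without the 100 highest genes (0.38, adjusted p = 0.109, limma) and in a fit of the 6 compared libraries (adjusted p = 0.0631, limma). Between matNeu cells and GMPs the difference was -0.12, with a 95% interval from -0.57 to 0.33, and it turned to 1.28 (adjusted p = 9.64e-05, limma) under the shift to the same median and to 0.10 without the 100 highest genes. The Y-linked homologue *Kdm5d* was listed at 0.783 to 1.6 TPM in the 9 libraries. Among other Y-linked genes, *Ddx3y* reached 0.0859 TPM and *Eif2s3y* 0.292 TPM at most, while *Uty* lay between 0.38 and 3.05 TPM. Reads shared between genes as similar as *Kdm5c* and *Kdm5d* cannot be assigned with certainty.

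*Kdm5a* lay between 28.2 and 40.7 TPM in all 9 libraries. None of its comparisons passed the test, and its difference between matNeu cells and GMPs was -0.25 (95% interval -0.60 to 0.10). When every library was shifted to the same median, all 3 comparisons turned positive and were called, at 0.55 for preNeu cells against GMPs (adjusted p = 0.00755, limma), 0.59 for matNeu against preNeu cells (adjusted p = 0.00384, limma) and 1.15 for matNeu cells against GMPs (adjusted p = 2.76e-05, limma). Without the 100 highest genes that of preNeu cells against GMPs was 0.33 and not called. Together the 3 KDM5 genes summed to 92.0 ± 9.0 TPM in GMPs (SD, n = 3), 64.9 ± 5.15 in preNeu cells and 117 ± 18.7 in matNeu cells. Within that sum *Kdm5a* made up 39.1 ± 2.79%, 52.4 ± 0.933% and 26.2 ± 4.07%, and *Kdm5b* 21.2 ± 2.24%, 13.1 ± 1.91% and 44.8 ± 2.94%. The leading demethylase transcript was thus *Kdm5a* in every preNeu library and *Kdm5b* in every matNeu library, a comparison within libraries that no scaling of TPM can move.

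Of the enhancer methyltransferases, *Kmt2c* measured 14.4, 23.0 and 20.8 TPM in GMPs, 23.5, 31.8 and 29.0 TPM in preNeu cells and 32.5, 34.7 and 53.2 TPM in matNeu cells. The stages did not overlap, with GMPs lowest and matNeu cells highest. The log2 difference between matNeu cells and GMPs was 1.00 ± 0.24 (SE, adjusted p = 0.00284, limma), 2-fold, and it was called under both alternative scalings and without any single library (0.79 without matNeu library 3). The steps from GMPs to preNeu cells (0.53, adjusted p = 0.0831, limma) and from preNeu to matNeu cells (0.48, adjusted p = 0.108, limma) did not pass by themselves. Under the shift to the same median both passed, at 1.16 (adjusted p = 0.00133, limma) and 1.24 (adjusted p = 0.000558, limma), and the former also passed without the 100 highest genes (0.94, adjusted p = 0.00577, limma).

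*Kmt2d* measured 16.7, 17 and 15.2 TPM in GMPs, 14.1, 17 and 17.5 TPM in preNeu cells and 25.2, 20.4 and 32.8 TPM in matNeu cells. GMP and preNeu values overlapped and all matNeu values lay above them. It rose by 0.63 ± 0.21 (SE) on the log2 scale from preNeu to matNeu cells (adjusted p = 0.0194, limma) and by 0.62 ± 0.21 between GMPs and matNeu cells (adjusted p = 0.0167, limma). Without matNeu library 3 these differences were 0.46 (adjusted p = 0.0774, limma) and 0.45 (adjusted p = 0.0696, limma), and the former was also not called without preNeu library 1 (adjusted p = 0.0653, limma) or the latter without GMP library 3 (adjusted p = 0.0518, limma). The rise from preNeu cells was not called without the 100 highest genes either (0.46, adjusted p = 0.0585, limma). The difference between preNeu cells and GMPs, at -0.01, turned to 0.62 (adjusted p = 0.0156, limma) under the shift to the same median and to 0.39 without the 100 highest genes.

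The differences of the SETD1 genes had opposite signs. *Setd1b* measured 5.35, 5.12 and 6.29 TPM in GMPs, 5.41, 8.17 and 6.04 TPM in preNeu cells and 8.53, 9.18 and 11.3 TPM in matNeu cells, and all matNeu values lay above all others. Its difference between matNeu cells and GMPs was 0.69 ± 0.24 on the log2 scale (SE, adjusted p = 0.0206, limma), which was not called without matNeu library 3 (0.58), GMP library 1 (0.67) or GMP library 2 (0.64). Its other comparisons were not called (0.18 for preNeu cells against GMPs and 0.51 for matNeu against preNeu cells) and were called higher under the shift to the same median (0.81 and 1.27). *Setd1a* measured 4.79, 3.8 and 11.5 TPM in GMPs, 2.86, 1.63 and 4.1 TPM in preNeu cells and 0.614, 2.24 and 0.805 TPM in matNeu cells, with GMP library 3 far above the other GMP libraries. GMPs and matNeu cells did not overlap, and preNeu values overlapped with both. *Setd1a* was lower in matNeu cells than in GMPs, with means of 1.22 and 6.68 TPM. The log2 difference was -1.73 ± 0.43 (SE, adjusted p = 0.00346, limma), 3.32-fold on the log2(TPM + 1) scale, which shrinks ratios at such low TPM. Leaving out 1 library moved this difference between -2.04 and -1.32, and it passed each time. When every library was shifted to the same median it was -0.34 (adjusted p = 0.497, limma).

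*Kmt2a* measured 8.54, 11.5 and 8.89 TPM in GMPs, 4.94, 5.82 and 6.67 TPM in preNeu cells and 5.02, 5.09 and 5.64 TPM in matNeu cells. GMP values lay above all others, while preNeu and matNeu values overlapped. It fell by 0.64 ± 0.23 (SE) in preNeu cells (adjusted p = 0.0321, limma) and by 0.76 ± 0.23 in matNeu cells (adjusted p = 0.0106, limma), both against GMPs and on the log2 scale. These falls were close to the median gene, with 45.7% and 52.9% of tested genes at a lower difference, and the latter turned to 0.64 (adjusted p = 0.0169, limma) when every library was shifted to the same median. The fall in preNeu cells was not called under the same shift (-0.01, adjusted p = 0.97, limma) or without the 100 highest genes (-0.29, adjusted p = 0.322, limma), and the difference between matNeu and preNeu cells turned from -0.12 to 0.65 under that shift. The fall in preNeu cells was also not called without GMP library 2 (-0.52), GMP library 3 (-0.69), preNeu library 1 (-0.55) or preNeu library 2 (-0.65), and that in matNeu cells was not called without GMP library 2 (-0.64). An antisense gene, *AC061963.1*, overlaps the start of *Kmt2a*, and the noncoding *Gm26745* overlaps *Setd1b* on the opposite strand, and whether counting used strand is not stated. *Kmt2b* ranged from 6.38 to 10.5 TPM in preNeu cells, from 11.1 to 14.4 TPM in GMPs and from 8.74 to 19.0 TPM in matNeu cells, and none of its comparisons passed the test. Its difference between matNeu cells and GMPs was 0.02 (95% interval -0.63 to 0.66), and 1.41 (adjusted p = 0.00067, limma) under the shift to the same median. That shift also turned the difference of preNeu cells from GMPs from -0.56 to 0.07 and brought the difference of matNeu from preNeu cells to 1.34, which was called.

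*Wdr5*, the scaffold that all 6 enzymes share, measured 135, 140 and 123 TPM in GMPs, 115, 115 and 138 TPM in preNeu cells and 73.8, 71.7 and 78.6 TPM in matNeu cells. GMP and preNeu values overlapped, and matNeu values lay below both. It fell by 0.71 ± 0.12 (SE) on the log2 scale from preNeu to matNeu cells (adjusted p = 0.00045, limma) and by 0.82 ± 0.12 between GMPs and matNeu cells (adjusted p = 9.54e-05, limma). The difference from GMPs was 0.10 above the median gene and turned to 0.57 (adjusted p = 0.000674, limma) when every library was shifted to the same median. Under that shift the difference of matNeu from preNeu cells was 0.06 (adjusted p = 0.652, limma), and that of preNeu cells from GMPs turned from -0.12 to 0.52, and to 0.30 without the 100 highest genes.

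**Figure D4:**
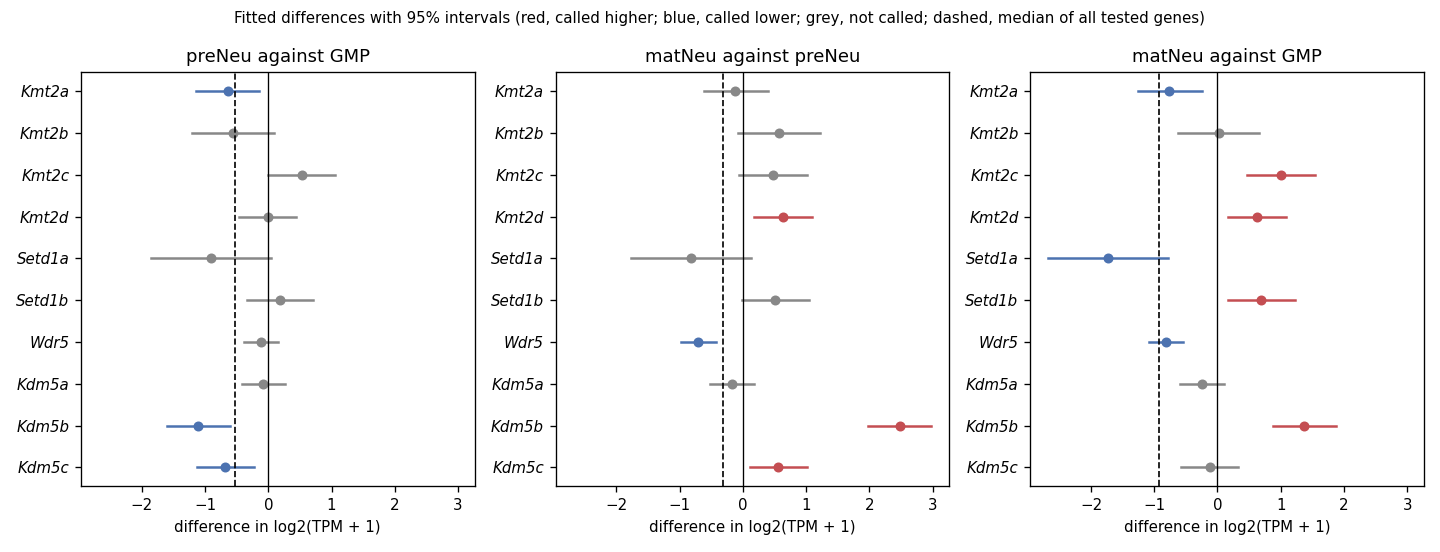
Differences in log2(TPM + 1) of the 10 genes in the 3 comparisons, with points at the fitted difference and lines over its 95% interval (red, called higher; blue, called lower; grey, not called). The dashed line is the median of all tested genes, at -0.52, -0.32 and -0.92, and *Kdm5b* lies farthest from it in the 2 comparisons with matNeu cells; *Kmt2a* and *Wdr5* turn to 0.64 and 0.57 in matNeu cells against GMPs when libraries are shifted to the same median.

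The sum of the 6 methyltransferases was 70.6 ± 6.04 TPM in GMPs (SD, n = 3), 68.2 ± 9.52 in preNeu cells and 96.1 ± 23.2 in matNeu cells. *Kmt2c* made up 27.3 ± 4.89% of that sum in GMPs and 41.6 ± 2.96% in matNeu cells, and *Kmt2a* 13.7 ± 2.23% and 5.61 ± 0.9%. These shares are given without a test. The ratio of the methyltransferase sum to the KDM5 sum was 0.768 ± 0.0258 in GMPs, 1.05 ± 0.162 in preNeu cells and 0.818 ± 0.0686 in matNeu cells, with every preNeu library above every library of the other stages.

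Of 22 further genes of the pathway, 15 were called lower, 1 higher and 6 neither in matNeu cells against GMPs, where 54.1% of all tested genes were called lower and 22.8% higher, with a median difference of -1.10 beside -0.92 for all genes. In preNeu cells against GMPs 7 were lower and 2 higher (all genes, 44.3% and 14.7%), and from preNeu to matNeu cells 10 were lower and 2 higher (all genes, 39.8% and 22.9%). When every library was shifted to the same median, the split for matNeu cells against GMPs became 7 lower and 8 higher of the 22. Of all 13061 tested genes, 4063 were then called lower and 6023 higher. The 7 were *Ash2l*, *Rbbp5*, *Dpy30*, *Hcfc1*, *Men1*, *Paxip1* and *Smyd3*.

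The whole remaining core fell in matNeu cells. *Ash2l* measured 27.3, 50.8 and 106 TPM in GMPs, 44.6, 47.6 and 56.3 TPM in preNeu cells and 0.767, 0.382 and 2.21 TPM in matNeu cells. Its log2 difference between matNeu cells and GMPs was -4.76 ± 0.44 (SE, adjusted p = 2.22e-06, limma). *Dpy30* went from 50.8 ± 14.3 TPM in GMPs (SD, n = 3) to 2.38 ± 0.918 in matNeu cells and *Rbbp5* from 74.3 ± 9.56 to 15.2 ± 0.989 TPM, with log2 differences of -3.94 and -2.21. For all 3 genes the matNeu values lay below every GMP and preNeu value, and the difference between matNeu and preNeu cells was called as well (-4.66, -3.55 and -1.76). *Wdr5*, the other core gene, stood at -0.82 against GMPs in the same libraries.

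The other subunits were listed by complex, which does not mean that each is found in 1 complex alone. All 4 listed under the SETD1 complexes were called lower in matNeu cells than in GMPs, as were 54.1% of all tested genes. *Hcfc1*, which encodes a transcriptional coregulator, fell from 84.0 ± 5.5 to 4.62 ± 0.74 TPM (SD, n = 3), with a log2 difference of -3.93, and the CpG-binding subunit gene *Cxxc1* from 71.7 ± 8.14 to 27.0 ± 1.96 TPM (-1.37). *Wdr82* (-1.19) and *Bod1l* (-0.81) completed the list, and *Cxxc1*, *Wdr82* and *Bod1l* turned to 0.02, 0.20 and 0.59 when every library was shifted to the same median. Among the partners of KMT2A and KMT2B, *Men1*, which encodes menin, was lower in preNeu cells (-1.26) and in matNeu cells (-1.97) than in GMPs, *Psip1* was lower in matNeu cells (-0.63), which turned to 0.76 under the median shift, and *Hcfc2* was higher in preNeu cells (0.59) and not called in matNeu cells (-0.33). Among those of KMT2C and KMT2D, *Paxip1* fell from 38.8 ± 5.07 TPM in GMPs to 2.53 ± 1.7 TPM in matNeu cells (-3.62) and *Pagr1a*, whose product binds that of *Paxip1*, was also lower (-1.43), a call lost under both alternative scalings. The H3K27 demethylase gene *Kdm6a* and the coactivator gene *Ncoa6* were not called in matNeu cells (-0.26 and 0.25), and *Ncoa6* was higher in preNeu cells than in GMPs (0.82). *Hcfc2* and *Ncoa6* were the 2 further genes called higher in that comparison, and between 0 and 2 were called when 1 library was left out.

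Among related enzymes, *Kmt2e*, a KMT2 family gene whose product is not known as an active H3K4 methyltransferase, rose from 108 ± 17.8 TPM in GMPs (SD, n = 3) and 107 ± 11.7 in preNeu cells to 252 ± 24.3 in matNeu cells, with a log2 difference of 1.22 ± 0.15 (SE) from GMPs (adjusted p = 1.82e-05, limma). *Smyd3* fell from 40.1 ± 4.86 to 6.91 ± 0.527 TPM in preNeu cells and 4.33 ± 0.339 TPM in matNeu cells. *Setd7* was higher in matNeu than in preNeu cells (1.41) and not called against GMPs (0.83), and *Prdm9* was not called in any comparison. Among the other demethylases *Kdm2b* was lower in preNeu (-1.63) and matNeu cells (-1.80) than in GMPs, the latter not called under the median shift, and *Kdm1a*, which encodes the demethylase LSD1, was lower in preNeu (-1.15) and matNeu cells (-1.0), the former a call lost under both alternative scalings. *Kdm1b* was lower in matNeu cells (-0.80), and *Kdm1a* and *Kdm1b* turned to 0.39 and 0.60 for matNeu cells against GMPs under the median shift. *Kdm5d* was not called in any comparison.

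**Figure D5:**
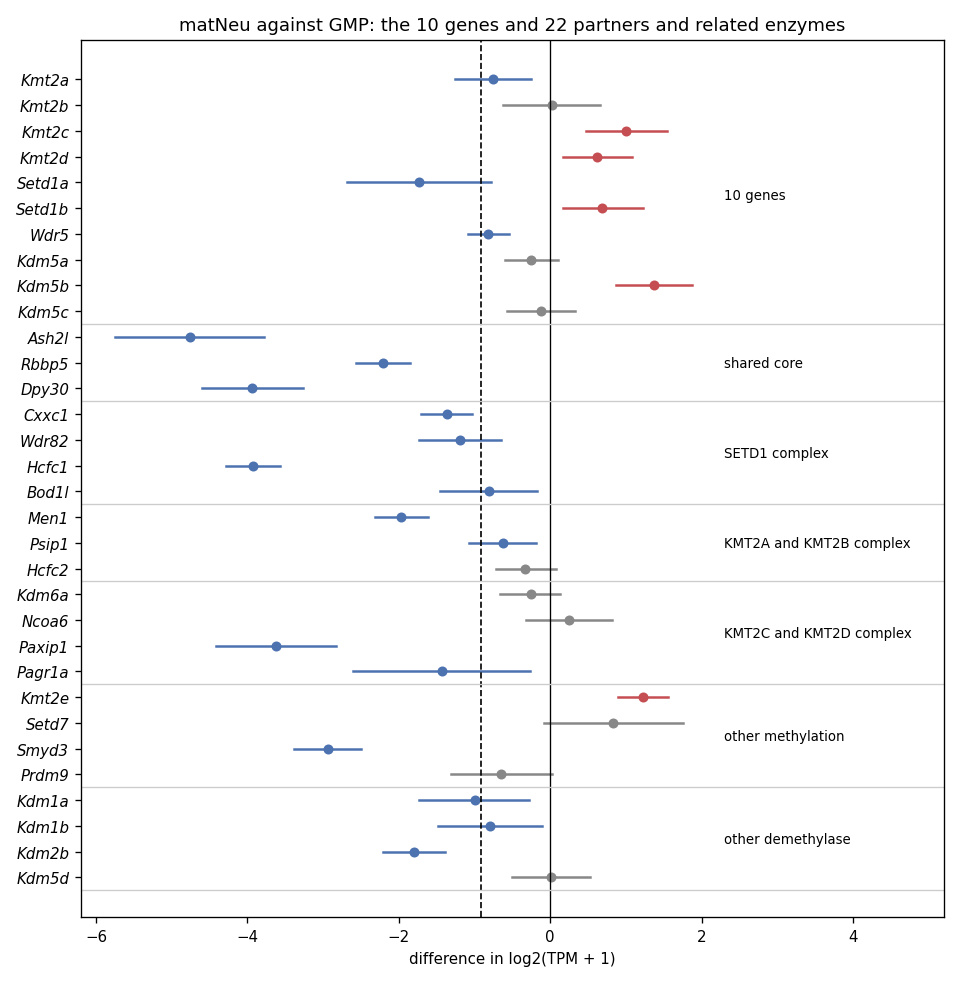
Differences in log2(TPM + 1) between matNeu cells and GMPs for the 10 genes and 22 partners and related enzymes, grouped by complex, with points at the fitted difference and lines over its 95% interval (red, called higher; blue, called lower; grey, not called). The dashed line is the median of all tested genes (-0.92), and *Ash2l*, *Dpy30*, *Hcfc1* and *Paxip1* lie below -3, while *Kdm5b*, *Kmt2e* and *Kmt2c* lie highest.

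Genes with the most similar course over the 9 libraries were sought for the 2 members with the highest and the lowest change between matNeu cells and GMPs, by the root mean square difference of log2(TPM + 1) after each gene was centred on its mean. For *Kdm5b* these were *BC048403* (0.20), *Calcoco1* (0.21) and *Klhl24* (0.23), whose mean TPM was lowest in preNeu cells (2.09, 5 and 13.9) and highest in matNeu cells (19.5, 35.8 and 88.8). For *Setd1a* they were *Rtl8b* (0.26), *Acot11* (0.31) and *6330549D23Rik* (0.33). These similarities are descriptions and carry no test.

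RNA and H3K4me2 ranks were read beside each other. The promoter fold enrichment of *Kdm5b* ranked highest in GMPs, where its RNA was intermediate, and lowest in matNeu cells, where its RNA was highest. The width of the same promoter peak ranked otherwise, above 74.9%, 64.1% and 79.3% of promoter peaks in GMPs, preNeu and matNeu cells. By width it was thus lowest in preNeu cells and highest in matNeu cells, as was the RNA. *Setd1a*, whose RNA was lowest in matNeu cells, kept a promoter peak of 2590, 3331 and 2903 bp that ranked above 23.2%, 38.1% and 42.1% of promoters in fold enrichment in GMPs, preNeu and matNeu cells. *Wdr5*, whose RNA was lowest in matNeu cells, had a peak of 4016, 7267 and 6651 bp, wider than 87.4%, 88.4% and 89.2% of promoter peaks. Its fold enrichment exceeded that of 52.6%, 88.2% and 51.7% of promoters at the same stages. With 1 H3K4me2 library per stage these orders have no replicate check. H3K4me2 covered a median of 10.3% of the gene and its flanks over the 10 genes in GMPs, 15.7% in preNeu cells and 13.9% in matNeu cells. The medians over the expressed coding genes were 7.29%, 12.8% and 10.1%.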

How the data were processed

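RNA-seq, ChIP-seq and ATAC-seq samples were grouped by their titles, which differ from a second cell type label for many samples. Expression values were deposited in TPM, 1 column for each library. How TPM was computed is not given in the sources used here, TPM keeps no depth, and the precision of single values is therefore unknown. Peaks were deposited with their fold over background (a linear ratio), their −log10 q-value and, for CHD4, a summit position, which the check of units lists as another measure. The submitters' processing notes name kallisto 0.44.0, BWA 0.7.17, MACS2 2.1.0, Trimmomatic 0.36, FastQC 0.11.5, MultiQC 1.6 and the build mm10, with no role or order. The H3K4me3 and GFI1 lists do not match this build and were not used here. A further marker gene is not reported here.

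Genes reaching 1 TPM in 3 or more libraries entered a limma fit (version 3.58.1, R 4.3.3) of log2(TPM + 1), all 9 libraries in a fit with cell type as the only term and a variance trend, at an adjusted p of 0.05. The fit was tested on simulated data in which few genes changed and the median gene did not shift. That test therefore cannot speak to the scaling of TPM. An exact permutation test of 3 against 3 libraries has a smallest p of 0.1. Peaks and sequences were read with Python 3.11.15, pandas 2.3.3 and samtools 1.23.1 using GENCODE and RefSeq annotation of GRCm38. An overlap needed 1 bp. Expressed coding genes are the 11865 tested coding genes. No column of values was left unused (0 columns). The members, gene lists and alternatives were chosen with earlier results of these data known. Named genes were all members, the genes of the list of partners and related enzymes, and the 3 genes most like the members of highest and lowest change. Alternatives were other pseudocounts, filters and scalings of TPM, fits of 6 libraries, with a replicate block or without the trend, each library left out, and other peak thresholds, windows and overlaps.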

Additional observations from a re-analysis of the deposited data

How the results depend on the processing

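Directions depended most on the scaling of TPM. With every library shifted to the same median, 5, 8 and 9 members were called in preNeu against GMP, matNeu against preNeu and matNeu against GMP, all higher, instead of 3, 4 and 7. Of all 13061 tested genes, 3828, 5530 and 6023 were then called higher and 3166, 3251 and 4063 lower. Reversed log2 differences for preNeu cells against GMPs were then *Kmt2b* 0.07, *Kmt2d* 0.62, *Wdr5* 0.52, *Kdm5a* 0.55, *Cxxc1* 0.15 and *Rbbp5* 0.18, for matNeu against preNeu cells *Kmt2a* 0.65, *Wdr5* 0.06, *Kdm5a* 0.59, *Wdr82* 0.05, *Men1* 0.06 and *Smyd3* 0.19, and for matNeu cells against GMPs *Kmt2a* 0.64, *Wdr5* 0.57, *Kdm5a* 1.15, *Kdm5c* 1.28, *Wdr82* 0.20, *Cxxc1* 0.02, *Psip1* 0.76, *Kdm1a* 0.39, *Kdm1b* 0.60 and *Bod1l* 0.59. Of all calls for matNeu cells against GMPs, 59.7% were then higher, against 29.6%, and the median difference was 0.47. With TPM rescaled without the 100 highest genes, 2 members were called in matNeu against preNeu. Of all tested genes, 2663 were called higher and 5790 lower in that comparison. Under this rescaling *Kmt2d* 0.39, *Wdr5* 0.30 and *Kdm5a* 0.33 (preNeu against GMP) and *Kdm5c* 0.10 (matNeu against GMP) reversed. The cause was not tested.

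Leaving out each library gave 2 to 3 members called in preNeu against GMP, 2 to 5 in matNeu against preNeu (2 without preNeu library 1 or matNeu library 3) and 5 to 7 in matNeu against GMP. Differences that crossed 0 ranged from -0.07 to 0.08 for *Kmt2d* and -0.16 to 0.01 for *Kdm5a* in preNeu against GMP, and from -0.24 to 0.28 for *Kmt2b* and -0.33 to 0.08 for *Kdm5c* in matNeu against GMP, and none of these passed in the full set. The deviations of libraries with the same replicate number correlated between -0.04 and 0.12, so the numbers are not taken to pair the libraries. With the replicate block 4, 4 and 7 members were called, *Kmt2c* in preNeu against GMP being added (0.53, adjusted p = 0.0476, limma).

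The gene bodies alone held 1 CHD4 peak instead of 6. With flanks of 25 kb, 1 peak was kept in *Gfi1*-/- GMPs. Where peaks below a −log10 q-value of 5 were dropped, 5 of the 10 genes had a promoter H3K4me2 peak in GMPs and 10 in each later stage. The other alternatives run left these counts of members and peaks within 1.5 times.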
